A study of Saccharomyces cerevisiae with 18 samples.

Results

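The 10 genes described here act in the pheromone response and cell fusion of budding yeast: FUS1 (YCL027W), FUS2 (YMR232W), FIG1 (YBR040W), PRM1 (YNL279W), AGA1 (YNR044W), KAR4 (YCL055W), STE12 (YHR084W), FUS3 (YBL016W), FAR1 (YJL157C) and GPA1 (YHR005C). They were measured in 18 poly(A) RNA libraries of asynchronous cultures, whose protocols name no pheromone. They were chosen by systematic name, as 10 of the 7036 features in the count files, and all 10 were present in every file. None of the 10 overlaps another annotated gene or has a near-identical copy in the R64 reference (95% identity over 50% of its length). The question was how high these genes stood without pheromone and whether their levels changed with lysine 467 of Nup60, a protein of the nuclear pore basket.

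The strains were K467N, with asparagine at residue 467 as a mimic of acetylated lysine, K467R, with arginine as a mimic of lysine kept deacetylated, and WT, with the lysine. In each strain NUP60 was fused to GFP in the S288C background, so the WT also carried the tag. HIS3 of Saccharomyces kluyveri marked the NUP60 locus in K467N and WT, and HIS3MX6 marked it in K467R, so marker and substitution cannot be told apart in comparisons with K467R. There were 6 libraries per strain, from cultures grown at 25 °C in YP medium with 2% glucose and adenine until the optical density reached 0.6 to 0.7. The labels give neither mating type nor ploidy. They do not say that the 6 libraries came from separate cultures or from more than 1 clone, so p-values measure the spread between these libraries, which may be technical.

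In budding yeast, a mating pheromone binds a receptor on cells of the opposite mating type and frees the G protein βγ pair from its α subunit. A MAP kinase cascade then activates the transcription factor Ste12, which binds pheromone response elements (PREs) before genes for arrest in G1, agglutination, cell fusion and nuclear fusion. Haploid cells keep a low activity of this pathway without pheromone, and many of its components are themselves its targets.

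The PREs are shown first, because they are what most of the 10 genes share in sequence. The motif searched was TGAAACA, on both strands, in the 300 bases before each start codon of the RefSeq R64 genome. The build used for the counts is not given in the sources used here, and coordinates below are those of R64. The stretches run 5′ to 3′ on the strand of the gene, with 20 bases on either side of the outermost matches, and capitals mark the motif (TGTTTCA where it lies on the opposite strand).
FUS1 (chrIII:71596-71669, plus strand): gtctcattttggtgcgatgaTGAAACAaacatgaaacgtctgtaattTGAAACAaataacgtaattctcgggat
FUS2 (chrXIII:736685-736752, plus strand): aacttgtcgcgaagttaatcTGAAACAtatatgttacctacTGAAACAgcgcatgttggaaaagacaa
PRM1 (chrXIV:110716-110784, plus strand): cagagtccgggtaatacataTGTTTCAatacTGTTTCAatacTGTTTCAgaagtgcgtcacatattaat
AGA1 (chrXIV:703477-703523, plus strand): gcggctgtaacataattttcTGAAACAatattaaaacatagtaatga
KAR4 (chrIII:27764-27855, plus strand): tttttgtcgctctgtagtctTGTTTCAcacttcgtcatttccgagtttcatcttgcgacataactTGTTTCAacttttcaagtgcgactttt
FUS3 (chrII:192169-192321, plus strand): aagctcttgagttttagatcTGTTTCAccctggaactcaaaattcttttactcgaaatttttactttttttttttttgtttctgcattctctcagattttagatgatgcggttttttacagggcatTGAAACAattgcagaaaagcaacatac

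In PRM1 the 3 matches followed each other in the same orientation, between 181 and 153 bases before the start codon, and this was the only window with 3 matches among 6001 genes. FUS1, FUS2, KAR4 and FUS3 held 2 each, as did 0.367% of all windows when counted as 2 or more (22 genes, of which 5 are of the 10). AGA1 held 1, and at least 1 was found before 7.20% of genes. FIG1, STE12, FAR1 and GPA1 had no match to these 7 letters in the window. With only the first 6 letters, TGAAAC, which 19.4% of windows hold and which every full match also contains, FIG1 had 2 and FAR1 had 1. The matches before FIG1 are in capitals here, to show how they differ from those above.
FIG1 (chrII:316731-316820, plus strand): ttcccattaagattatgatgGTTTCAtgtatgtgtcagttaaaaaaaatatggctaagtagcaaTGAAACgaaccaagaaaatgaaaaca

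In a window of 600 bases, tried after the first result, STE12, FUS2 and PRM1 held 3 matches each, while FIG1, FAR1 and GPA1 still held 0. Of all windows of that length, 14.6% hold at least 1 and 0.100% hold at least 3. The site of Tec1, the partner of Ste12 in the filamentation response (CATTCC or CATTCT), was found before 1 of the 10 genes, FUS3, against 25.6% of all windows. Of the 88 other mating and related genes examined, 21 had a PRE in 300 bases, and TEC1, BAR1, MF(ALPHA)2 and DSE2 had at least 2.

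Markers of mating type were checked next, since the labels do not give it. The receptor and pheromone genes of a cells were well above those of α cells in every strain. STE2, the receptor of a cells, averaged 495 ± 41.0 CPM (counts scaled to library size) in K467N, 427 ± 57.9 CPM in K467R and 467 ± 35.8 CPM in WT (SD, n = 6 each). MF(ALPHA)1, which encodes α-factor, had 3 counts in all K467N libraries together, 12 in K467R and 11 in WT, and STE3, the receptor of α cells, had 61, 64 and 57 counts in the same order. MFA2, an a-factor gene, was at 163 ± 26.6, 190 ± 23.3 and 159 ± 26.1 CPM. The other markers did not all divide this way. Of the a-cell genes ASG7 was low, at 11.8 ± 2.5 CPM in K467N, 12.8 ± 2.87 CPM in K467R and 12.0 ± 2.99 CPM in WT. In CPM, 2 α-cell genes stood above it. SAG1 (α-agglutinin) averaged 34.0 ± 3.08 CPM in K467N, 28.7 ± 4.31 CPM in K467R and 33.6 ± 5.24 CPM in WT. AFB1, which encodes a blocker of a-factor, averaged 21.8 ± 1.53, 22.8 ± 2.30 and 22.5 ± 1.41 CPM. Divided by coding length, ASG7 (18.8, 20.4 and 19.1 CPM per kb) was above SAG1 (17.4, 14.7 and 17.2) and below AFB1 (32.3, 33.7 and 33.3). The a-cell genes MFA1, STE6, BAR1 and AGA2 averaged at least 64 CPM in each strain. NUP60 itself averaged 87.6 ± 3.19 CPM in K467N, 89.1 ± 4.20 CPM in K467R and 84.6 ± 6.50 CPM in WT, which checks that the gene was transcribed but not which residue it encoded.

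Libraries held 12395725 to 19093010 gene counts (median 14310651), and 75.3 to 76.2% of the reads sorted by the counter fell on genes. The first principal component of all tested genes held 37.4% of the variance, with K467R 1 at -19.7 and K467N 2 at 15.5 at its ends. Both libraries were kept in the tests. Without them, 13 of the 27 fold changes of the tested genes moved by over 1.5 times, and the values of FUS1, FUS2, FUS3 and KAR4 that did so are given both ways. Nothing in bulk RNA separates fewer cells that express a gene from less RNA per cell.

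Without pheromone the 10 genes spanned a wide range. Divided by coding length, which allows levels to be compared between genes, the highest stood 356-fold above the lowest in K467N, 279-fold in K467R and 322-fold in WT. The order of mean levels was the same in all strains: GPA1, FUS3, KAR4, FAR1, STE12, AGA1, FUS1, PRM1, FUS2 and FIG1. Components of the signalling and transcription machinery took the upper places and the genes of fusion itself the 4 lowest. All 10 together took 0.0733 to 0.0784% of gene counts in K467N libraries, 0.0708 to 0.0754% in K467R and 0.0694 to 0.0750% in WT.

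**Figure D1:**
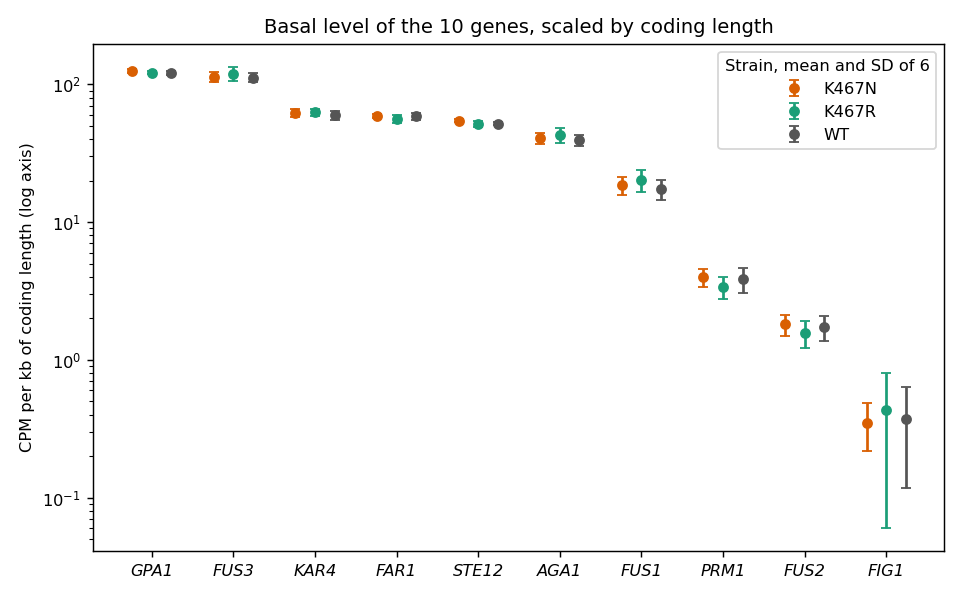
Level of each gene in CPM per kb of coding length, on a log axis, for the 3 strains (points are means and bars SD of 6 libraries). The genes keep 1 order in K467N, K467R and WT, with GPA1 highest at 121 to 124 and FIG1 lowest at 0.349 to 0.435.

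GPA1, the Gα subunit that holds the βγ pair when no pheromone is bound, stood at 124 ± 4.08 CPM per kb in K467N, 121 ± 3.22 in K467R and 121 ± 4.81 in WT, above 78.3, 77.5 and 77.6% of the 5472 tested genes with a coding length. FUS3, the MAP kinase that phosphorylates Ste12 and Far1, came close behind at 113 ± 9.38, 120 ± 13.8 and 112 ± 8.27 CPM per kb. The libraries of GPA1 and FUS3 overlapped in each strain. FUS3 was 2.52 times as high as KSS1, the MAP kinase it shares the pathway with, in K467N, 2.86 times in K467R and 2.53 times in WT.

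KAR4, FAR1 and STE12 formed a middle group that was hard to order. KAR4, a partner of Ste12 at genes of nuclear fusion, had 61.8 ± 4.19 CPM per kb in K467N, 62.5 ± 3.22 in K467R and 59.5 ± 4.52 in WT. For FAR1, the inhibitor of G1 cyclin-dependent kinase that also guides polarity towards the pheromone source, the values were 58.9 ± 2.2, 56.0 ± 3.69 and 58.5 ± 3.44. STE12 followed with 54.2 ± 1.28, 51.8 ± 2.64 and 51.8 ± 1.31. KAR4 and FAR1 libraries overlapped in each strain, with KAR4 above FAR1 in 4 of 6 K467N libraries, 5 of 6 K467R libraries and 3 of 6 WT libraries. FAR1 was above STE12 in each of the 18 libraries when the 2 genes were compared within a library.

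Below these, the gaps widened, although the libraries of STE12 and AGA1 still overlapped in K467R. There the lowest STE12 library had 48.1 CPM per kb and the highest AGA1 library 49.9. AGA1, which anchors the a-agglutinin to the cell wall, had 40.8 ± 3.69 CPM per kb in K467N, 42.7 ± 5.42 in K467R and 39.2 ± 3.70 in WT, close to the middle of all genes (49.5, 51.1 and 48.2% of genes lay lower). FUS1, a membrane protein of the mating projection whose promoter is the usual reporter of the pathway, had 18.5 ± 2.81, 20.1 ± 3.66 and 17.4 ± 2.93 CPM per kb and stood above 24.4, 27.9 and 23.0% of genes. PRM1, which acts in plasma membrane fusion, was another step lower, at 3.97 ± 0.590, 3.39 ± 0.604 and 3.84 ± 0.774. FUS2, which works with Rvs161 in cell fusion, had 1.81 ± 0.314, 1.57 ± 0.339 and 1.72 ± 0.356. No library of FUS1 overlapped PRM1 and none of PRM1 overlapped FUS2 within a strain.

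FIG1, a membrane protein needed for calcium entry during mating, was near the limit of detection. It had 29 counts over 6 K467N libraries (0.313 CPM, exact Poisson 95% interval 0.210 to 0.450), 34 over 6 K467R libraries (0.402, 0.278 to 0.561) and 29 over 6 WT libraries (0.335, 0.224 to 0.481). These intervals cover counting error of the summed counts only, and not the spread between libraries. The reads carry no molecular identifiers, so copies made by PCR were not told apart from separate molecules. Single libraries ran from 2 to 7 counts in K467N, from 2 to 16 in K467R and from 1 to 9 in WT, and the gene was too low to be tested by the filter used. Of the 34 counts, 16 were in K467R 4, and without it K467R had 18 counts over 5 libraries (0.260 CPM, 0.154 to 0.412). Tested without the filter, its log2 fold change was -0.09 ± 0.49 (SE) for K467N against WT and 0.26 ± 0.48 for K467R against WT (edgeR, adjusted p = 1 and 0.874). Without K467R 4, chosen after the data were seen, the value for K467R against WT was -0.35 ± 0.46 (adjusted p = 0.730).

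The number of PREs did not follow the level: PRM1, with 3, was among the 3 lowest, and GPA1, with 0, was highest. This is a description of 10 genes, with no test.

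**Figure D2:**
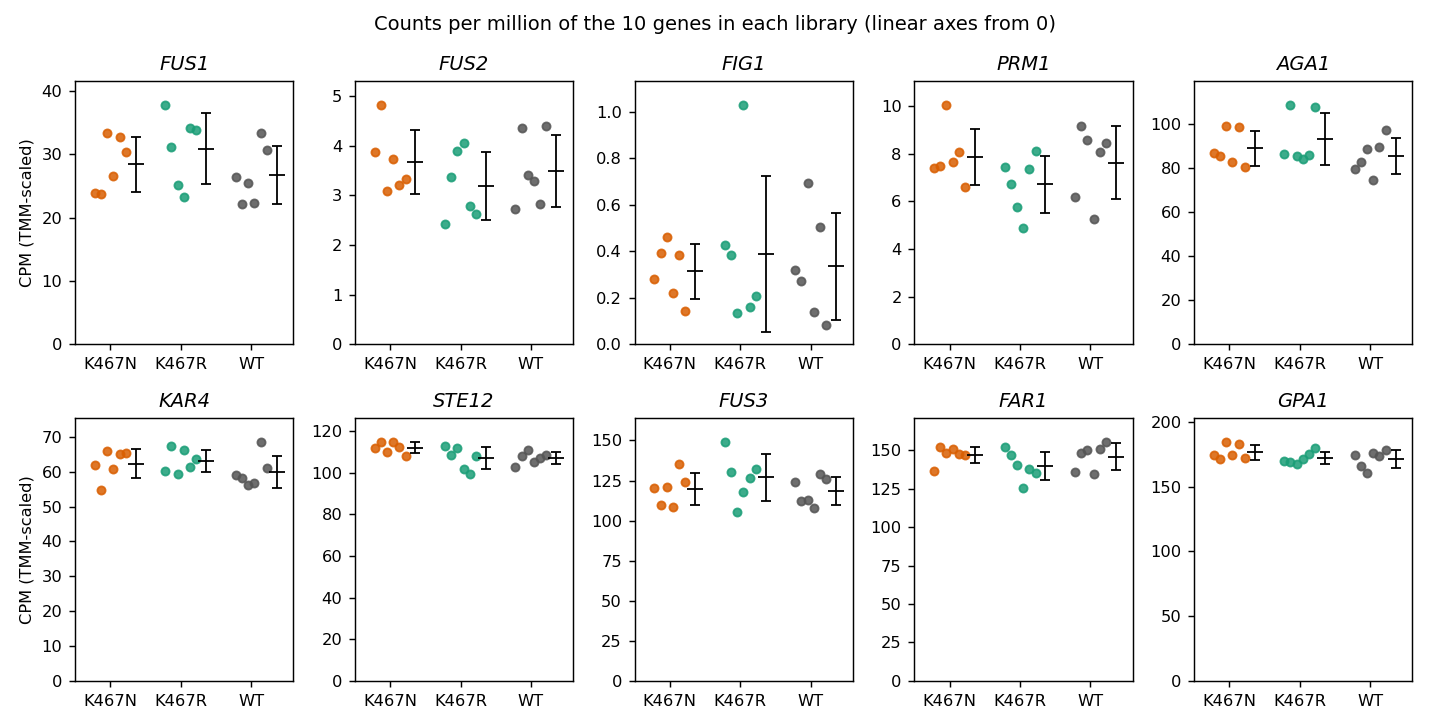
CPM in each library (points), with the mean and SD of 6 libraries beside them, for K467N, K467R and WT, on linear axes that start at 0. The groups overlap for each of the 10 genes; FUS1, for example, runs from 23.7 to 33.4 CPM in K467N, from 23.3 to 37.8 in K467R and from 22.2 to 33.4 in WT.

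Whether mating genes responded to the acetyl mimic was read from K467N against WT. No gene was called changed: of 9 tested genes, 0 passed an adjusted p of 0.05 (edgeR quasi-likelihood test, Benjamini-Hochberg over 5660 genes), where 0.0707% of all genes did. Also 0 had an unadjusted p under 0.05, where 1.15% of all genes did, and the count was again 0 in DESeq2 and in limma-voom. Libraries of K467N and WT overlapped for each of the 10 genes, while they did not overlap for 0.124% of all genes.

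The value of STE12 in K467N libraries ran from 108 to 115 CPM with a median of 112, against 103 to 111 CPM with a median of 108 in WT. All 6 K467N libraries were above the WT median and 4 were above every WT library, the clearest separation of the 10. The log2 fold change was 0.07 ± 0.04 (SE), with an adjusted p of 0.999 in edgeR. FUS1 had the highest fold change, 0.09 ± 0.13 (95% interval -0.17 to 0.35), and 0.14 without K467R 1 and K467N 2, with 23.7, 28.5 and 33.4 CPM as lowest, median and highest of K467N libraries against 22.2, 26.0 and 33.4 CPM in WT. The lowest, FAR1, was at 0.01 ± 0.05, with 136 to 152 CPM in K467N against 134 to 156 CPM in WT. For FUS2 the interval was the widest, from 0.847-fold to 1.33-fold. Without K467R 1 and K467N 2, FUS2 was at -0.00682 in place of 0.08, FUS3 at 0.04 in place of 0.01, and KAR4 at 0.09 in place of 0.05.

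All 9 tested genes had a log2 fold change above 0, with a median of 0.06, where 2841 of 5660 genes lay above 0 and the median of all genes was 0.000298. That count was between 6 and 8 in 8 of the 26 alternatives tried: without WT 4, for example, PRM1, FUS3 and FAR1 were below 0, and without K467N 2 FUS2 was. The 9 genes share the same libraries, so they are not 9 independent observations. Of the 85 other mating and related genes tested, 57 lay above 0.

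The comparison of K467R with WT asks the same of the deacetyl mimic. Here too 0 of 9 genes passed the test, against 0.0707% of all genes, among them HIS3 (log2 fold change -12.0). Also 0 had an unadjusted p under 0.05, against 5.67% of all genes, and DESeq2 and limma-voom gave 0 as well. The strains overlapped for each of the 10 genes, and did not for 0.283% of all genes. Directions were mixed, with 6 of 9 above 0 and a median of 0.01, where 2654 of 5660 genes lay above 0 and the median of all genes was -0.01.

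FUS1 stood highest, at 23.3, 32.5 and 37.8 CPM (lowest, median and highest) in K467R against 22.2, 26.0 and 33.4 CPM in WT. Of the K467R libraries 3 were above every WT library, yet the lowest were within the WT range. Its log2 fold change was 0.21 ± 0.13 (95% interval -0.06 to 0.47, edgeR adjusted p = 0.747), and 0.14 without K467R 1 and K467N 2. AGA1 followed, with 84.1, 86.0 and 109 CPM in K467R against 74.7, 85.8 and 97.1 CPM in WT (0.12 ± 0.08). Its excess lay in 2 libraries, K467R 2 and K467R 6, at 109 and 108 CPM, and the other 4 lay between 84.1 and 86.2.

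PRM1 was the lowest of the 9, with 4.89, 7.06 and 8.14 CPM in K467R against 5.26, 8.27 and 9.17 CPM in WT (log2 fold change -0.18 ± 0.14, 95% interval -0.47 to 0.12). No K467R library reached the WT median, and 1 was below every WT library. FUS2 was at -0.11 ± 0.16, but at -0.04 without K467R 1 and K467N 2, and at -0.0361 without WT 2. The genes with PREs had values of both signs, positive for FUS1, AGA1, KAR4 and FUS3 and negative for PRM1 and FUS2, none past the test.

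Among the signalling genes, FUS3 had 106, 129 and 149 CPM in K467R against 108, 118 and 129 CPM in WT (0.10 ± 0.07, and 0.05 without K467R 1 and K467N 2). FAR1 was at -0.06 ± 0.05, with 126, 139 and 152 CPM in K467R against 134, 149 and 156 CPM in WT. The narrowest intervals were those of GPA1 (0.01 ± 0.04, or 0.954-fold to 1.06-fold) and STE12 (0.000370 ± 0.04, or 0.947-fold to 1.06-fold). KAR4 was at 0.07 ± 0.06, with all 6 K467R libraries above the WT median and 0 above every WT library.

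Setting the mimics against each other, K467N against K467R, gave 0 of 9 genes past the test, against 0.0177% of all genes. That share is 1 gene, HIS3 (log2 fold change 11.9), with 7394 counts in K467N libraries and 1 in K467R libraries. The HIS3 marker at NUP60 also differs between these strains. None of the 9 had an unadjusted p under 0.05, although 11.2% of all genes did, with the same count of 0 in DESeq2 and limma-voom, and libraries overlapped for each of the 10, against 0.283% of all genes that did not. PRM1 had the highest value (0.23 ± 0.14), with a mean of 7.88 ± 1.17 CPM in K467N and 6.73 ± 1.20 CPM in K467R (SD, n = 6 each). FUS2 was next (0.20 ± 0.16) but was at 0.04 without K467R 1 and K467N 2. FUS1 was lowest, at -0.12 ± 0.13, and at -0.00104 without those 2 libraries. FUS3 was at -0.09 ± 0.07 with them and -0.00957 without, and KAR4 at -0.02 ± 0.06 with them and 0.0048 without. The comparisons of K467N and of K467R with WT share the 6 WT libraries, so their values are not independent.

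**Figure D3:**
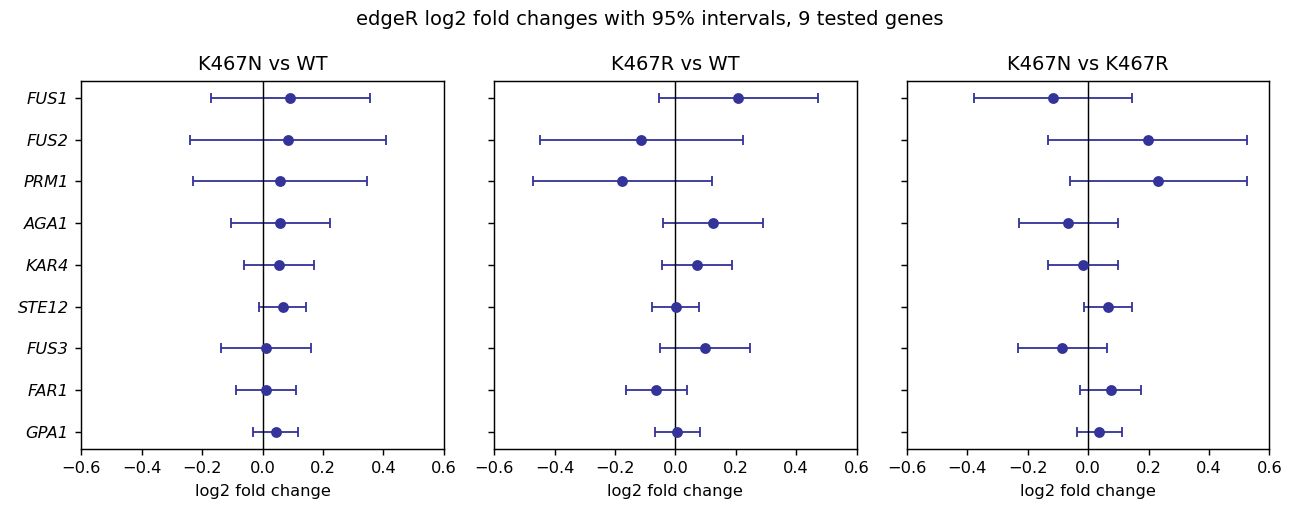
Log2 fold changes (points) with 95% intervals (bars) of the 9 tested genes in the 3 comparisons, from edgeR. Each interval includes 0; the widest against WT is that of FUS2 in K467R, from -0.45 to 0.22.

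Over both comparisons with WT, the 95% intervals of the 9 genes lay between 0.721-fold (PRM1 in K467R) and 1.39-fold (FUS1 in K467R). For GPA1 and STE12 the intervals were narrower, and that of STE12 in K467N reached 1.11-fold.

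Within a strain, the 9 tested genes differed in how much their log2 CPM varied from library to library. GPA1 and STE12 were steady: the SD of their log2 CPM around the strain mean was 0.05 for each, which put them at percentiles 4.6 and 5.2 of the 500 genes nearest in level. KAR4 (0.09) and FAR1 (0.08) were near the middle for their level. FUS3 (0.13) and AGA1 (0.15) varied more than 80.8 and 81.4% of such genes, PRM1 (0.26) more than 87.6%, and FUS1 (0.24) more than 96.4%. FUS2 had the highest SD, 0.27, but genes of its level varied nearly as much (median 0.25).

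FUS1 and FUS3 moved together. They deviated from their strain means in the same direction in 16 of 18 libraries, with Pearson's r = 0.82 and Spearman's rho = 0.83 over 18 libraries, given as a description. FUS2 ran the other way, with r = -0.71 (rho = -0.72) to FUS1 and opposite signs in 13 of 18 libraries, although FUS1 and FUS2 both carry 2 PREs. PRM1 and AGA1 were also alike (r = 0.66, rho = 0.69). Without the 2 libraries farthest from the median of the first gene, these values were 0.82, -0.63 and 0.56, and without K467R 1 and K467N 2 they were 0.78, -0.64 and 0.71. Over all 36 pairs of the 9 genes the median r was 0.31, and 24 pairs were above 0.

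The log2 CPM of FUS1, FUS2 and FUS3 moved with a difference between libraries that extends over the whole transcriptome. FUS1 and FUS3 had r = -0.80 and -0.87 with the first principal component, and FUS2 had 0.75, while PRM1 (0.02) and FAR1 (0.03) were near 0. These r values were taken without removing the strain means, so they include differences between strains. The correlation of the component with the deviations from the strain means was not computed. Across all 5660 genes the median size of r with that component was 0.63, and 28.7% of genes reached the value of FUS1. FUS1 was highest in K467R 1, at 37.8 CPM, the library at the low end of the component, and had 23.7 CPM in K467N 2, at the high end. The part of this component in the values of FUS1, FUS2 and FUS3 was not tested.

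**Figure D4:**
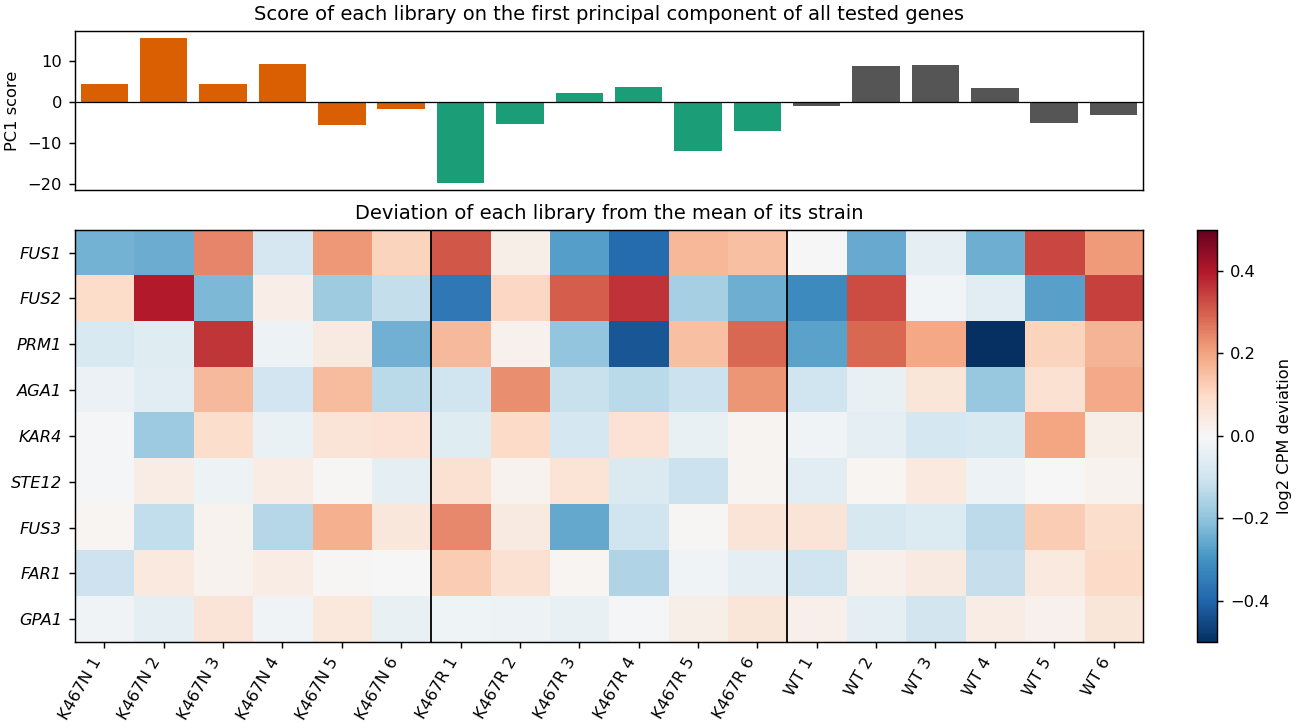
Top, score of each library on the first principal component of all tested genes; bottom, deviation of log2 CPM of 9 genes from the mean of their strain in each library (red above, blue below). FUS1 and FUS3 are mostly high where the score is low, as in K467R 1 (score -19.7), FUS2 mostly shows the opposite, and the rows of STE12 and GPA1 stay pale.

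The tested genes whose log2 CPM was most like that of FUS1 over the 18 libraries were UBX6 (r = 0.92), YDR133C (0.91), CYC1, which encodes cytochrome c (0.91), CCP1, which encodes cytochrome c peroxidase (0.88), and ASG7 (0.88), an a-specific gene induced by pheromone. They are the 5 highest of 5659 other genes, whose median r was -0.03, and strain means were not removed. FUS1 itself had r = -0.80 with the first principal component, for which the median size of r over all genes was 0.63. The part of that component in these 5 values was not tested. None of the 10 mating genes was among these 5.

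The rest of the pathway was read from 11 lists, with 88 genes besides the 10, of which 85 were tested. In K467N against WT 0 of the 85 passed the test in either direction and 0 had an unadjusted p under 0.05. In K467R against WT 0 passed and 5 had an unadjusted p under 0.05, and in K467N against K467R 0 passed and 11 did. These last shares are close to those of all genes given above. Of the 85, 57 lay above 0 in K467N against WT and 32 in K467R against WT. Of all 5660 tested genes, 2841 and 2654 did.

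The 14 receptor, G protein and kinase genes that are not among the 10 gave 0 calls, and had log2 fold changes from -0.09 to 0.08 in K467N against WT and from -0.14 to 0.20 in K467R, where the highest was STE3, with few counts. STE4, the Gβ subunit, averaged 219 ± 2.00 CPM in K467N, 212 ± 7.17 CPM in K467R and 218 ± 5.53 CPM in WT. STE5, the scaffold of the cascade, had the lowest value in K467R (-0.14 ± 0.08), with 61.2 ± 6.28 CPM in K467N, 53.0 ± 5.08 CPM in K467R and 58.5 ± 5.97 CPM in WT.

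The transcription factors and repressors showed 0 calls among 4. TEC1 had log2 fold changes of 0.02 ± 0.05 in K467N and 0.03 ± 0.05 in K467R, and DIG2, a repressor of Ste12, 0.05 ± 0.08 and 0.14 ± 0.08. Of 8 genes of desensitisation, 5 were above 0 in K467N and 1 in K467R, with medians of 0.02 and -0.09 and 0 calls. SST2, which speeds GTP hydrolysis on Gpa1 and so ends the signal, averaged 124 ± 9.45 CPM in K467N, 106 ± 12.0 CPM in K467R and 115 ± 6.56 CPM in WT. Between the mutants SST2 had a log2 fold change of 0.23 ± 0.07 with an adjusted p of 0.408 (edgeR).

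Among 13 tested genes of agglutination and the pheromone-induced cell surface, 0 passed in either direction in any comparison, with medians of 0.01 in K467N and -0.01 in K467R. The extremes were PRM2 and PRM3, with 61 to 94 counts per strain: PRM2 at -0.32 ± 0.32 in K467N and PRM3, which acts in nuclear fusion, at 0.43 ± 0.27 in K467R. SAG1 had an unadjusted p under 0.05 in K467R (-0.23 ± 0.10, adjusted p = 0.747 in edgeR). The 7 other genes of cell fusion and polarity had 0 calls and values from -0.03 to 0.05 in K467N and from -0.13 to 0.07 in K467R. Of 11 nuclear fusion genes, 9 were above 0 in K467N and 3 in K467R, with 0 calls; BIK1, a microtubule-binding protein, was at 0.14 ± 0.06 in K467R.

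The mating-type lists gave 0 calls as well, as did the 8 other haploid-specific genes (medians 0.02 in K467N and -0.00157 in K467R). The a-specific genes had a median of 0.02 in K467N and 0.09 in K467R, where 4 of 7 lay above 0. Of these the a-factor genes stood highest in K467R against WT, with log2 fold changes of 0.27 ± 0.16 for MFA1 and 0.26 ± 0.11 for MFA2 (adjusted p = 0.747 for each in edgeR). In the same comparison STE2, STE6 and BAR1 lay below 0, at -0.13, -0.09 and -0.06. In the filamentation branch, where Ste12 acts with Tec1, PGU1 (pectinase) was at -0.25 ± 0.12 in K467R, with 0 calls among 8 genes. The 16 M/G1 genes, taken along because FAR1 is transcribed at that stage, had medians of 0.03 in K467N and -0.01 in K467R and 0 calls. CTS1, the chitinase of cell separation, was at 0.10 ± 0.05 in K467N and 0.11 ± 0.05 in K467R.

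**Figure D5:**
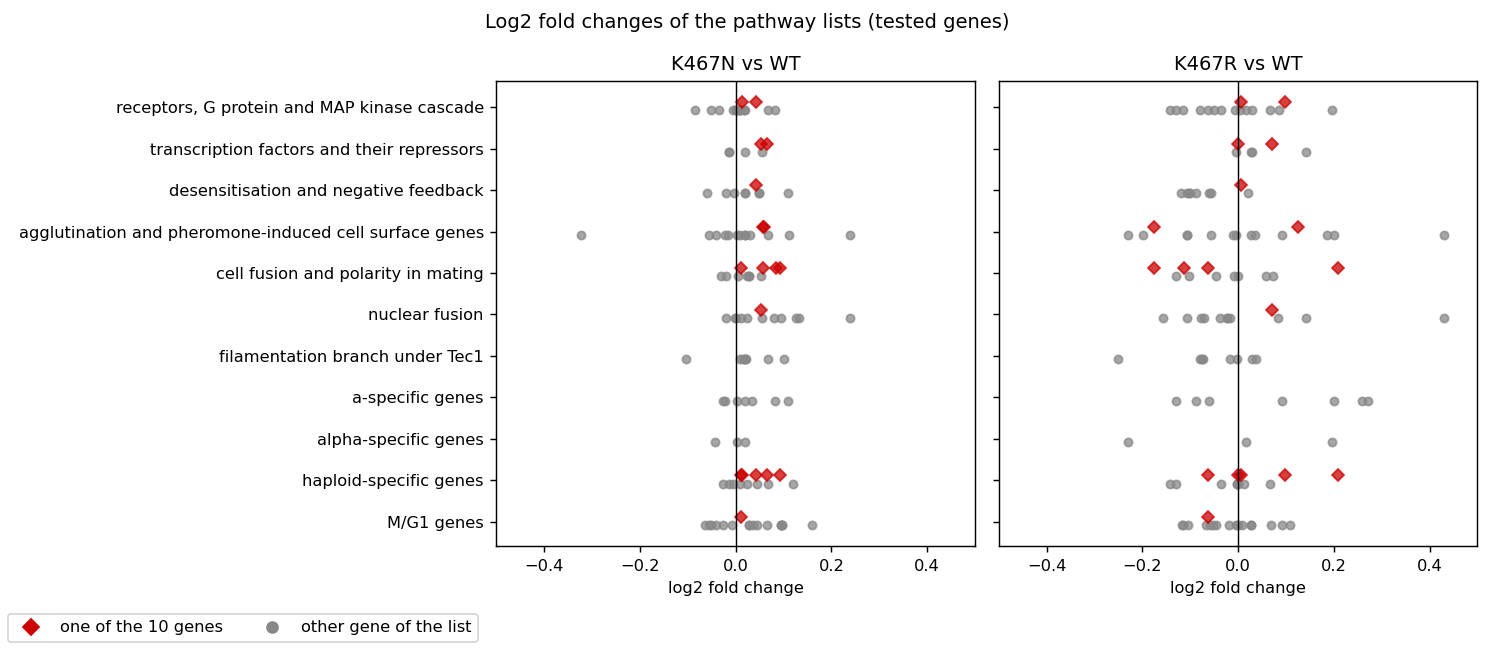
Log2 fold changes of all tested genes of 11 pathway lists in K467N against WT (left) and K467R against WT (right), with the 10 mating genes as red diamonds and the other genes as grey circles; a gene in several lists appears in each. No gene passed the test, and the point farthest from 0 is PRM3, at 0.43 in K467R, a gene with 71 to 94 counts per strain.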

How the data were processed

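The deposited values are raw counts, 1 per feature and library, from stranded poly(A) libraries made from 600 ng of total RNA with 12 PCR cycles, per the labels' protocols. HTSeq 0.6.1p1, STAR 2.5.3a and bcl2fastq 2.20.0.422 are listed in the submitters' processing notes. The build, the annotation and whether counting used strand: not given in the sources used here. Symbols, coding lengths and promoter sequences came from RefSeq R64, to which 5956 of 7036 features matched by systematic name; copies were searched with BLAST 2.17.0.

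Tests used edgeR 4.0.16 under R 4.3.3: filterByExpr (5660 features kept), TMM scaling, and 1 quasi-likelihood fit of all 18 libraries (robust option, no term but strain). The 3 contrasts were two-sided, with Benjamini-Hochberg adjustment over all tested features. CPM use TMM-scaled library sizes, and log2 CPM a prior count of 2. The smallest chi-square per degree of freedom among 153 pairs of libraries was 2.40, so none was a duplicate. The fit was also run on simulated data, and the outcome is not given here. Alternatives included DESeq2 1.42.0 and limma-voom (limma 3.58.1). Figures used Python 3.11.15 and matplotlib 3.10.9.

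The 10 genes and the lists were chosen with earlier results of these data known. Named genes were the 10, NUP60, HIS3, mating-type markers and the 5 genes most like FUS1. Examples from each list came from its 3 genes of smallest p in either comparison with WT and its highest and lowest by level.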

Additional observations from a re-analysis of the deposited data

Results flagged for a closer look

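In K467R 4 FIG1 stood apart from the other K467R libraries, at 1.03 CPM (16 counts) where the next was 0.426 CPM. In K467N 1 FAR1 was apart on the low side, at 136.4 CPM where the other K467N libraries lay between 146.7 and 151.8 CPM. Each gap took up more of the range of its 6 libraries than Dixon's criterion allows, which chance exceeds in about 1 of 20 groups, and 30 groups were examined.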

How the results depend on the processing

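In each of the 26 alternatives per comparison, 0 of the tested members passed, and the smallest adjusted p was 0.258 (STE12, K467N against K467R, without K467R 3). Of 702 refitted fold changes of members 27 changed sign, all of them values within 0.1 of 0. STE12 in K467R against WT was at -0.00338 with upper-quartile scaling, -9.15e-05 in limma-voom and -0.0153 without K467R 1 and K467N 2. Without these 2 libraries FUS2 was at -0.00682 in K467N against WT and KAR4 at 0.0048 in K467N against K467R. Leaving out each library in turn gave ranges of -0.0154 to 0.0206 (STE12) and -0.0117 to 0.0181 (GPA1) in K467R against WT and of -0.0342 to 0.0155 for KAR4 between the mutants. In K467N against WT they were -0.00514 to 0.161 for FUS2, -0.0291 to 0.12 for PRM1, -0.0258 to 0.0437 for FUS3 and -0.0114 to 0.0301 for FAR1. The count of all genes past the test was 7 in DESeq2 in place of 4 for K467R against WT, and 2 in place of 1 between the mutants; the cause was not tested. Levels in CPM without TMM factors, or without 1 library, moved by less than 1 SD in all 210 cases. Leaving out 1 of 6 libraries cannot move their mean by 1 SD, so those cases were settled beforehand and say nothing of steadiness. No paired analysis was made because the labels give the libraries no replicate numbers. The numbers 1 to 6 used here follow the order in which the samples are listed. In each strain libraries 3 and 4 scored above 0 on the first principal component and libraries 5 and 6 below 0. Libraries 1 and 2 had scores of both signs. Whether this order marks libraries made together is not in the labels and was not tested. Depth limits FIG1 most, with 1 to 16 counts per library.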
